A study of Mus musculus with 7 samples.

Results

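The 10 genes described here encode proteins known to work with the DNA demethylase TET1 on chromatin: the sugar transferase Ogt and its substrate Hcfc1, the deacetylase complex genes Sin3a, Hdac1, Hdac2 and Chd4, and the Polycomb repressive complex 2 genes Ezh1, Ezh2, Suz12 and Eed. They were chosen by name out of 51426 genes counted in mouse liver. The rule used no measured value, but it was set with earlier results of these data known. All 10 were expressed well enough to be tested, among 14754 genes that passed the filter on low counts. Liver mRNA was sequenced from 3 WT and 4 TET1 KO male mice labelled C57BL/6J, and both groups had been fed an HFD for 16 weeks from 8 weeks of age, so no liver on another diet enters these values. The TET1 KO mice lack TET1 in the whole body and descend from the B6;129S4-Tet1tm1.1Jae/J line, so that a difference in liver cannot be assigned to the loss of TET1 in hepatocytes. The labels do not say how the replicates relate in litter or handling, so the p-values measure only the spread between these livers, which may be partly technical.

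TET1 oxidizes methylated cytosine in DNA and binds CpG-rich promoters. There it is found with OGT, which attaches N-acetylglucosamine to proteins and also trims HCF1, with the SIN3A scaffold and the histone deacetylases HDAC1 and HDAC2, and with Polycomb repressive complex 2 (PRC2), which methylates histone H3 at lysine 27. CHD4 is the remodelling ATPase of the NuRD complex, which also holds HDAC1 and HDAC2.

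Library sizes were between 15005277 and 22746138 counts and overlapped between the genotypes, so that 1 CPM (counts scaled to library size, here TMM-normalized) stood for 15.01 to 22.75 counts before normalization. Tet1 itself was hit by 1 to 4 reads in every library of either genotype, so its mRNA does not check the genotype labels at this depth (exact two-sided permutation test on CPM, p = 0.686). The 7 hepatocyte markers found, which include Alb, summed to 71420 to 92650 CPM in the WT livers and 84350 to 94090 CPM in the TET1 KO livers. The 6 cholangiocyte markers summed to 29.7 to 37.9 CPM in WT and 46.2 to 68.0 CPM in TET1 KO livers, without overlap (exact two-sided permutation test, p = 0.0571), and the other 6 marker lists overlapped between the genotypes. Single genes of the marker lists were called in 1 list, that of stellate cells, with 1 gene. None of the cholangiocyte markers stayed at 3 counts or fewer in every library, and their part in the results below was not tested. In whole liver, fewer cells of a type and less RNA per cell cannot be told apart.

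None of the 10 genes was called higher or lower in TET1 KO livers by edgeR's quasi-likelihood test at a Benjamini-Hochberg adjusted p under 0.05 (lowest adjusted p = 0.139), where 2.02% of all tested genes were called. At an unadjusted p under 0.05 there were 2 of the 10, Ogt and Hdac1, against 26.3% of all tested genes. DESeq2 also called 0 of the 10, against 9.46% of all tested genes, and for 0 of the 10 did the genotypes separate without overlap, against 22.5% of all tested genes. Fitted log2 differences were above 0 for 5 genes and below 0 for 5, with a median of 0.01 for the 10 genes and 0.01 for all tested genes. The median size of the log2 fold change was 0.0856 for the 10 genes and 0.286 for all tested genes, with standard errors of 0.131 to 0.207 for the 10 genes and a median standard error of 0.198 over all tested genes. The 95% intervals of all 10 genes lay within a 2-fold difference either way, and those of 8 genes lay within 1.5-fold. A p that misses the threshold does not show that the genotypes were alike, and each interval gives the differences that 3 and 4 livers leave possible.

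**Figure D1:**
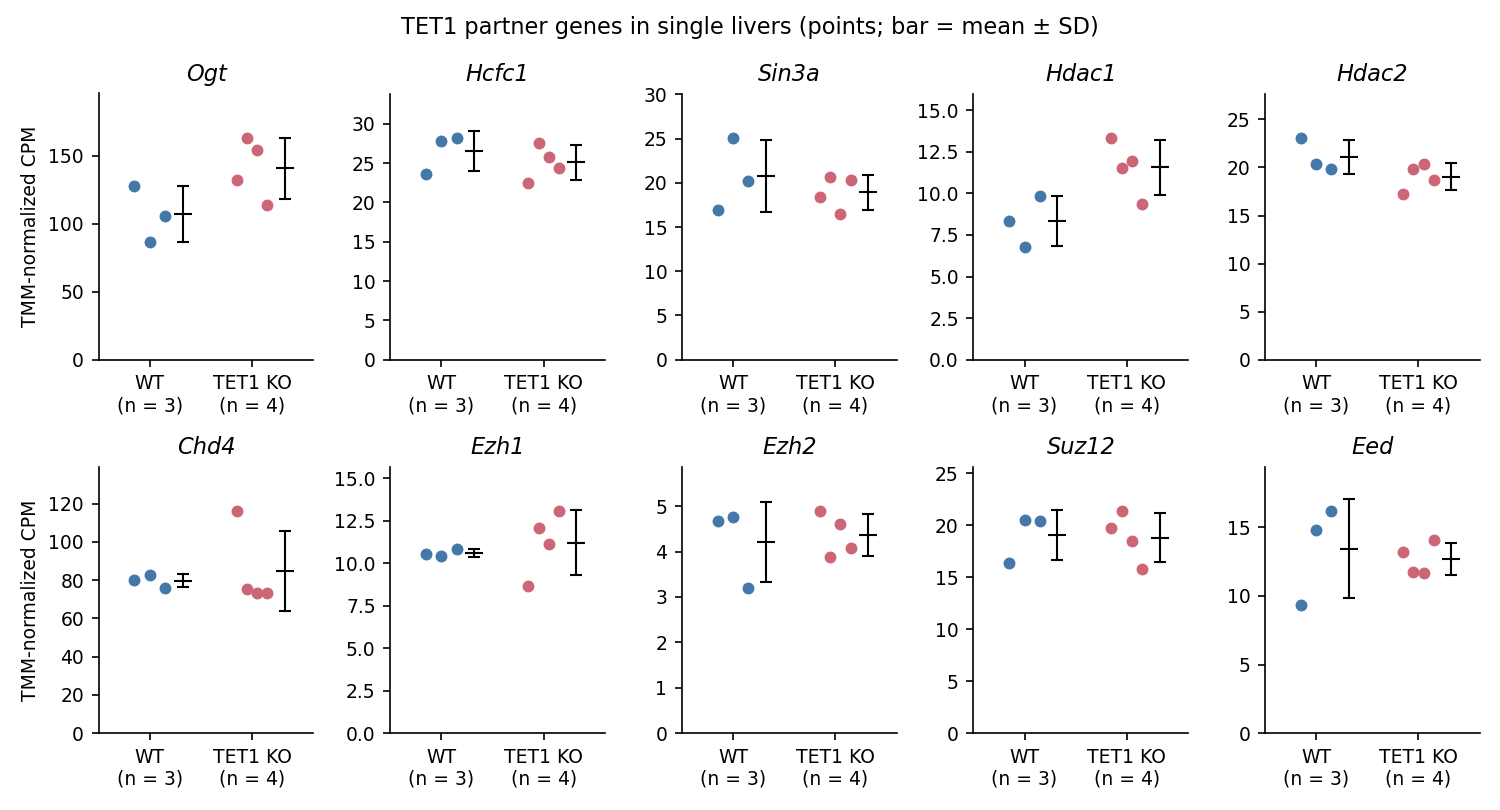
TMM-normalized CPM of the 10 genes in each liver, with each panel on its own linear axis from 0; points are single livers, and the bars give mean ± SD of 3 WT and 4 TET1 KO livers. The genotypes overlap in every panel, and for Chd4 TET1 KO replicate 1 stands at 115.9 CPM, above the other 3 TET1 KO livers.

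Ogt encodes the only enzyme that attaches O-linked N-acetylglucosamine to nuclear and cytosolic proteins (ENSMUSG00000034160, chromosome X of GRCm38 from 101640011 to 101684351). Its level was 128.1, 86.8 and 105.8 CPM in WT replicates 1 to 3 and 131.9, 163.2, 154.6 and 113.7 CPM in TET1 KO replicates 1 to 4. The lowest liver was a WT liver and the highest 3 were TET1 KO livers, but TET1 KO replicate 4 lay below WT replicate 1. The mean was 107 ± 20.7 CPM (SD, n = 3) in WT and 141 ± 22.4 CPM (SD, n = 4) in TET1 KO livers, and the fitted log2 difference, TET1 KO minus WT, was 0.40 (standard error, SE, 0.17, 95% interval 0.02 to 0.78). The unadjusted p was 0.0416 and the adjusted p was 0.173 in edgeR's quasi-likelihood test, which left Ogt at place 3543 of the 14754 genes in order of p.

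Hcfc1 encodes host cell factor 1, a cofactor of the SET1 histone methyltransferases and the BAP1 deubiquitinase (ENSMUSG00000031386, chromosome X, 73942792 to 73966995). It was measured at 23.6, 27.8 and 28.2 CPM in the WT livers and at 22.5, 27.6, 25.8 and 24.4 CPM in the TET1 KO livers. Each TET1 KO liver but replicate 1 lay within the WT range. The log2 difference of -0.08 (SE 0.13, 95% interval -0.38 to 0.21) had an adjusted p of 0.713 in edgeR's quasi-likelihood test.

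Sin3a encodes the scaffold that holds HDAC1 and HDAC2 in the SIN3 complex (ENSMUSG00000042557, chromosome 9, 57071991 to 57128368). It was at 16.9, 25.1 and 20.3 CPM in WT livers and 18.4, 20.6, 16.4 and 20.3 CPM in TET1 KO livers. The highest value was in WT replicate 2 and the other livers of both genotypes were mixed. Its log2 fold change was -0.13 (SE 0.16, 95% interval -0.49 to 0.22, edgeR adjusted p = 0.616), and it was 0.02 without WT replicate 2.

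Hdac1, a class I histone deacetylase of both the SIN3 and the NuRD complex (ENSMUSG00000028800, chromosome 4, 129516104 to 129542646), had the lowest p of the 10 genes. It was measured at 8.37, 6.80 and 9.82 CPM in the WT livers and at 13.3, 11.6, 12.0 and 9.37 CPM in the TET1 KO livers. Of the TET1 KO livers 3 lay above every WT liver, and replicate 4 lay below WT replicate 3. The mean was 8.33 ± 1.51 CPM (SD, n = 3) in WT and 11.6 ± 1.65 CPM (SD, n = 4) in TET1 KO livers, with a log2 difference of 0.47 (SE 0.18, 95% interval 0.07 to 0.88), an unadjusted p of 0.0256 and an adjusted p of 0.139 in edgeR's quasi-likelihood test.

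The counts of Hdac1 cannot be read alone, because a near-identical copy on chromosome 17, Gm10093 (ENSMUSG00000061062), is counted as a gene of its own. The longest coding Hdac1 transcript of 2038 bases matched the NCBIM37 genome there over 2004 aligned columns with 98.75% identity, 12 mismatches and 13 gap columns, and within the coding part of 1449 bases there were 9 mismatches and 0 gap columns. Identical stretches of 100 bases or more, 7 in number and up to 450 bases long, held 87% of the aligned columns, and a short read that falls inside one of them has the same sequence in both genes. The window with 6 of the mismatches is shown with the differing bases in capitals, from base 447 to 566 of the Hdac1 transcript and from chr17:78891284-78891403 of NCBIM37 on the plus strand. Counted from base 1 of the window, with the Hdac1 base first, the differences are C46T, T79A, A98G, C103T, C110T and T120C.
Hdac1: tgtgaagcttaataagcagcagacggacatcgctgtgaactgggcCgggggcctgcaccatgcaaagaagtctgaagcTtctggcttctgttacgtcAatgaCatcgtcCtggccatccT
Gm10093: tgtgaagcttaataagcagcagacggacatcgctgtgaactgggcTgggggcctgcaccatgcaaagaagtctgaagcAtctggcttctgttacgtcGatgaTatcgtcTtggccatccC

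Gm10093 had 8.86, 12.3 and 11.9 CPM in the WT livers and 10.1, 8.38, 6.24 and 10.02 CPM in the TET1 KO livers, about as much as Hdac1 itself. Its lowest values were in TET1 KO livers and its highest in WT livers, the order opposite to that of Hdac1, and the genotypes overlapped. The log2 fold change of Gm10093 was -0.34 (SE 0.20, 95% interval -0.79 to 0.11, adjusted p = 0.299 in edgeR's quasi-likelihood test). With the counts of both genes summed, a choice made after the values had been seen, the level was 17.2, 19.1 and 21.7 CPM in WT and 23.5, 19.9, 18.2 and 19.4 CPM in TET1 KO livers. The sum was highest in TET1 KO replicate 1 and lowest in WT replicate 1, and the other livers were mixed. Its log2 fold change was 0.07 (SE 0.15, 95% interval -0.25 to 0.39, edgeR adjusted p = 0.793). How reads were divided between the copies during counting is not given in the sources used here. A further 2 stretches like Hdac1 and 2 partial ones like Suz12 were found in the genome at 90% identity or more over at least 500 bases. Those like Hdac1, on chromosomes 12 and 18, matched 98.58% and 92.93% of the transcript at 93.83% and 95.25% identity. None of these stretches was annotated as a gene in GENCODE M1, and the other 8 genes had no such copy. The counts were made on GRCm38, where these stretches were not looked up, and the sum above leaves them out.

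**Figure D2:**
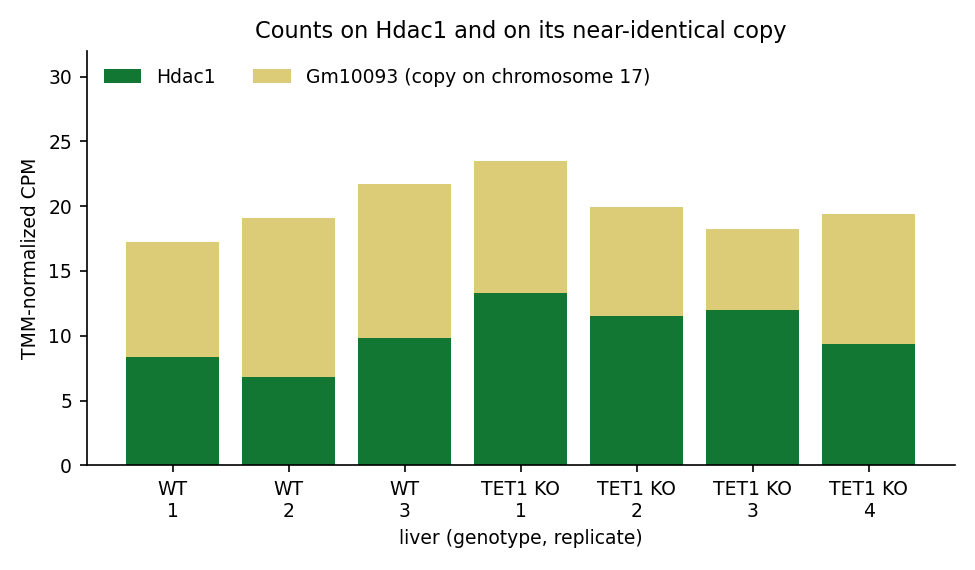
Stacked bars of TMM-normalized CPM counted on Hdac1 (dark) and on its copy Gm10093 (light) in each of the 7 livers, on a linear axis from 0. The dark part is larger in 3 TET1 KO livers than in any WT liver, while the whole bars overlap, from 17.2 to 21.7 CPM in WT and from 18.2 to 23.5 CPM in TET1 KO livers.

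Hdac2, the partner deacetylase of Hdac1 (ENSMUSG00000019777, chromosome 10, 36974297 to 37001889), was at 23.1, 20.4 and 19.8 CPM in WT and 17.3, 19.9, 20.4 and 18.7 CPM in TET1 KO livers. WT replicate 1 was highest and TET1 KO replicate 1 lowest, with the others close together. Its fitted log2 difference was -0.15 (SE 0.13, 95% interval -0.44 to 0.14, adjusted p = 0.490 in edgeR's quasi-likelihood test). Hdac2 lies on the chromosome of the targeted gene, 25.8 Mb from Tet1.

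Chd4, the ATPase of NuRD (ENSMUSG00000063870, chromosome 6, 125095980 to 125130591), was at 80.3, 82.5 and 75.8 CPM in the WT livers and at 115.9, 75.4, 73.3 and 73.4 CPM in the TET1 KO livers. TET1 KO replicate 1 stood far above all others, and the remaining TET1 KO livers all lay just below the WT livers. The log2 difference of 0.09 (SE 0.17, 95% interval -0.29 to 0.47, edgeR adjusted p = 0.768) became -0.10 without TET1 KO replicate 1 (adjusted p = 0.595).

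The PRC2 genes among the 10 comprise alternative methyltransferases, Ezh1 and Ezh2, and the subunits Suz12 and Eed that they need for activity. Ezh1, the form known to prevail in non-dividing cells (ENSMUSG00000006920, chromosome 11, 101191115 to 101226463), was at 10.5, 10.4 and 10.8 CPM in WT livers and at 8.64, 12.1, 11.1 and 13.0 CPM in TET1 KO livers. The TET1 KO values spread to both sides of the narrow WT range. Its mean was 10.6 ± 0.211 CPM (SD, n = 3) against 11.2 ± 1.88 CPM (SD, n = 4), with a log2 difference of 0.08 (SE 0.17, 95% interval -0.28 to 0.45, edgeR adjusted p = 0.770).

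Ezh2, known for its link to cell division (ENSMUSG00000029687, chromosome 6, 47530274 to 47595270), was the least abundant of the 10 genes, at 4.68, 4.77 and 3.20 CPM in WT and 4.88, 3.87, 4.60 and 4.08 CPM in TET1 KO livers. The highest and the lowest liver were TET1 KO replicate 1 and WT replicate 3. With 55 to 115 counts in a liver it also had the widest standard error of the 10 genes, and its log2 fold change was 0.05 (SE 0.21, 95% interval -0.41 to 0.50, edgeR adjusted p = 0.906), or -0.14 without WT replicate 3 and 0.14 without WT replicate 2. The 12 markers of proliferating cells summed to 16.8 to 21.6 CPM in WT and 13.2 to 19.5 CPM in TET1 KO livers, which overlapped.

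Suz12 (ENSMUSG00000017548, chromosome 11, 79993106 to 80034123), which holds the complex together, was at 16.3, 20.5 and 20.4 CPM in WT and 19.7, 21.3, 18.5 and 15.8 CPM in TET1 KO livers. Values of both genotypes covered nearly the same range, and the log2 fold change was -0.02 (SE 0.15, 95% interval -0.36 to 0.31, edgeR adjusted p = 0.941). Eed (ENSMUSG00000030619, chromosome 7, 89954654 to 89980976), which binds methylated lysine 27, was at 9.35, 14.8 and 16.2 CPM in WT and 13.2, 11.8, 11.7 and 14.1 CPM in TET1 KO livers. The TET1 KO livers all fell inside the wide WT range. Its log2 fold change was -0.08 (SE 0.19, 95% interval -0.51 to 0.34, edgeR adjusted p = 0.803), and -0.30 to 0.05 when each liver was left out. In the same way Suz12 lay between -0.13 and 0.06.

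**Figure D3:**
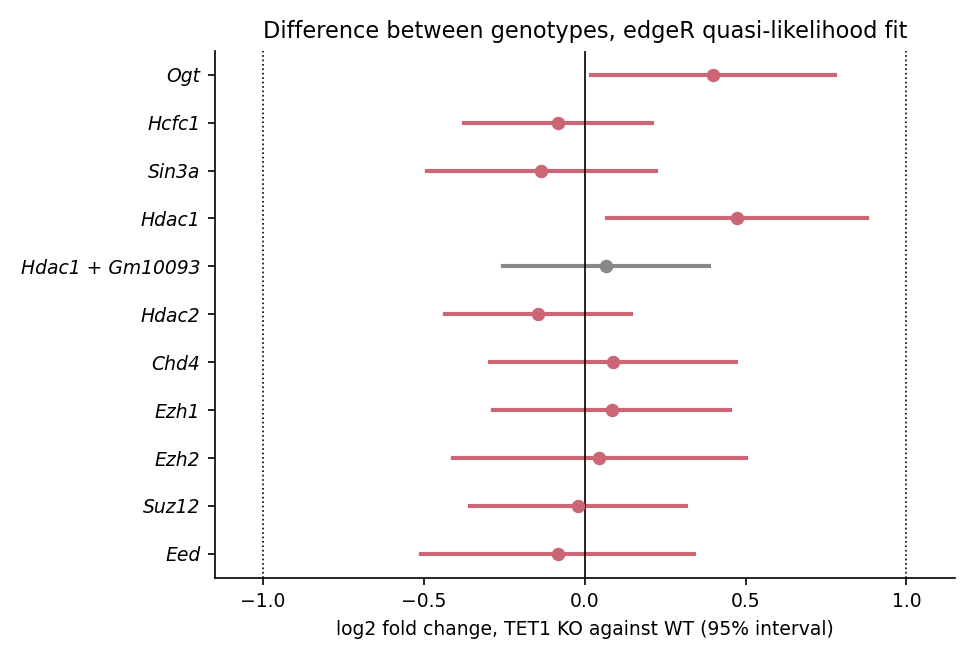
Log2 fold change of TET1 KO against WT livers for each gene (point) with its 95% interval (line) from edgeR's quasi-likelihood fit; the grey line is the sum of Hdac1 and Gm10093, and dotted lines mark a 2-fold difference either way. The intervals of Ogt (0.02 to 0.78) and Hdac1 (0.07 to 0.88) leave out 0, and that of the sum (-0.25 to 0.39) does not.

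Divided by the length of all exons in GENCODE M1, Ogt was the most abundant of the 10 genes and Ezh2 the least in both genotypes. Ogt had 13.3 ± 2.57 CPM per kb (SD, n = 3) in WT livers, followed by Chd4 with 9.92 ± 0.423 and Eed with 6.06 ± 1.63. Ezh1 had 1.42 ± 0.0283 CPM per kb and Ezh2 0.680 ± 0.142 in the same livers. In all 7 livers Ogt lay above Chd4, Chd4 above Eed, and Ezh1 above Ezh2. The middle of the order was not fixed: Hdac2, Suz12, Sin3a, Hcfc1 and Hdac1 lay between 2.42 and 4.70 CPM per kb in WT livers, Suz12 was above Sin3a in 5 of 7 livers, and Hcfc1 was above Hdac1 in 4 of 7. With the longest coding transcript as the length, Ogt, Chd4, Ezh1 and Ezh2 held their places, Eed lay above Hdac2 in 4 of 7 livers, and Hdac1 moved above Suz12 in 6 of 7. Both places of Hdac1 rest on its own counts and leave out those of its copy Gm10093.

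Since TET1 is known for binding CpG-rich promoters, the CG dinucleotides around the starts of the 10 genes were counted. RefSeq promoters (GRCm38.p6, 250 bases before to 50 after a start) were matched for 9 of the 10 genes, in 12 windows, but not for Hdac1. A window held 14 to 41 CG in 300 bases, with a median of 22, against a median of 7 over 32851 promoter windows. Of all windows 36.3% held 14 or more, so counts in this range are not particular to these genes. The PRC2 genes Suz12 and Eed are shown since they had the most and the fewest CG among the 4 PRC2 genes, with 41 and 17 in 300 bases, and 3.46% and 31.4% of all windows held at least as many. Each sequence is the 250 bases before the start, 5′ to 3′ in the direction of the gene, with CG in capitals, from chr11:79992856-79993105 on the plus strand for Suz12 and from chr7:89980977-89981226 on the minus strand for Eed.
Suz12: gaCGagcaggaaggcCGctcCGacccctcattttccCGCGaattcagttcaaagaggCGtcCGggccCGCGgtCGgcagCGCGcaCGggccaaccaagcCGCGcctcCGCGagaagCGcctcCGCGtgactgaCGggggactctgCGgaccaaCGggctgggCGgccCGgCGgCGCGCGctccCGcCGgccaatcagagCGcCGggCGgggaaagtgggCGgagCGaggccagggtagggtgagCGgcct
Eed: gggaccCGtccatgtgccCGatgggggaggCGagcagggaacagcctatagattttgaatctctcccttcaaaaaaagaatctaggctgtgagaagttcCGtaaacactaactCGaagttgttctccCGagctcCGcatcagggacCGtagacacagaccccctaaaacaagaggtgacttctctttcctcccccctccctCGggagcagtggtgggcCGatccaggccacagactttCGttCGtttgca

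The log2 fold changes of these genes were -0.02 for Suz12 and -0.08 for Eed, and neither was called. DNA methylation and TET1 binding at these promoters were not measured in the files used here.

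Ratios of related genes within a liver do not depend on how libraries are scaled against each other, and 5 such ratios were set against genotype with an exact two-sided permutation test, where the 35 splits of the livers allow no p under 0.0286. The ratio of Hdac2 to Hdac1 counts was 2.75, 2.99 and 2.01 in WT and 1.30, 1.72, 1.70 and 1.99 in TET1 KO livers. The TET1 KO livers all ranked under the WT livers, though TET1 KO replicate 4 and WT replicate 3 nearly met. The log2 ratio differed by -0.62 (0.650-fold, exact permutation p = 0.0286, Benjamini-Hochberg adjusted over the 5 ratios p = 0.0714). With Gm10093 added to Hdac1 the difference was -0.21 and the genotypes overlapped (exact permutation p = 0.4), and with Gm10093 in place of Hdac1 it was 0.21 (exact permutation p = 0.486), so that the direction turned with the copy that was counted.

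The ratio of Chd4 to Chd3, its alternative ATPase in NuRD, was 0.617, 0.704 and 0.586 in WT livers and 0.467, 0.399, 0.349 and 0.468 in TET1 KO livers. All 4 TET1 KO livers lay below all 3 WT livers, TET1 KO replicate 1 included. The log2 ratio differed by -0.60 (0.660-fold, exact permutation p = 0.0286, adjusted p = 0.0714), and by -0.51 to -0.66 when each liver was left out in turn. Only this ratio and Hdac2 to Hdac1 had the lowest possible exact permutation p, so their adjusted p could not fall below 0.0714. Chd3 alone had 130.0, 117.3 and 129.4 CPM in WT livers and 248.0, 188.9, 210.1 and 156.8 CPM in TET1 KO livers, with no overlap and a log2 difference of 0.68 (SE 0.16, adjusted p = 0.0575 in edgeR's quasi-likelihood test, which misses the threshold; 0.00602 to 0.251 over all alternatives).

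The other 3 ratios overlapped between the genotypes. Ogt to Oga, the enzyme that attaches the sugar against the one that removes it, was 2.36, 1.63 and 2.02 in WT and 1.88, 2.40, 2.59 and 1.87 in TET1 KO livers, a difference of 0.13 on the log2 scale (exact permutation p = 0.543, adjusted p = 0.679). Sin3b to Sin3a differed by 0.33 (exact permutation p = 0.229, adjusted p = 0.381), by 0.14 without WT replicate 2 and by 0.51 without WT replicate 1. Ezh2 to Ezh1 lay between 0.298 and 0.567 in all livers, with Ezh1 the more highly counted in each, and the mean log2 ratios were -1.35 ± 0.349 (SD, n = 3) in WT and -1.35 ± 0.395 (SD, n = 4) in TET1 KO livers. Leaving out each liver moved their difference to between -0.20 and 0.11.

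**Figure D4:**
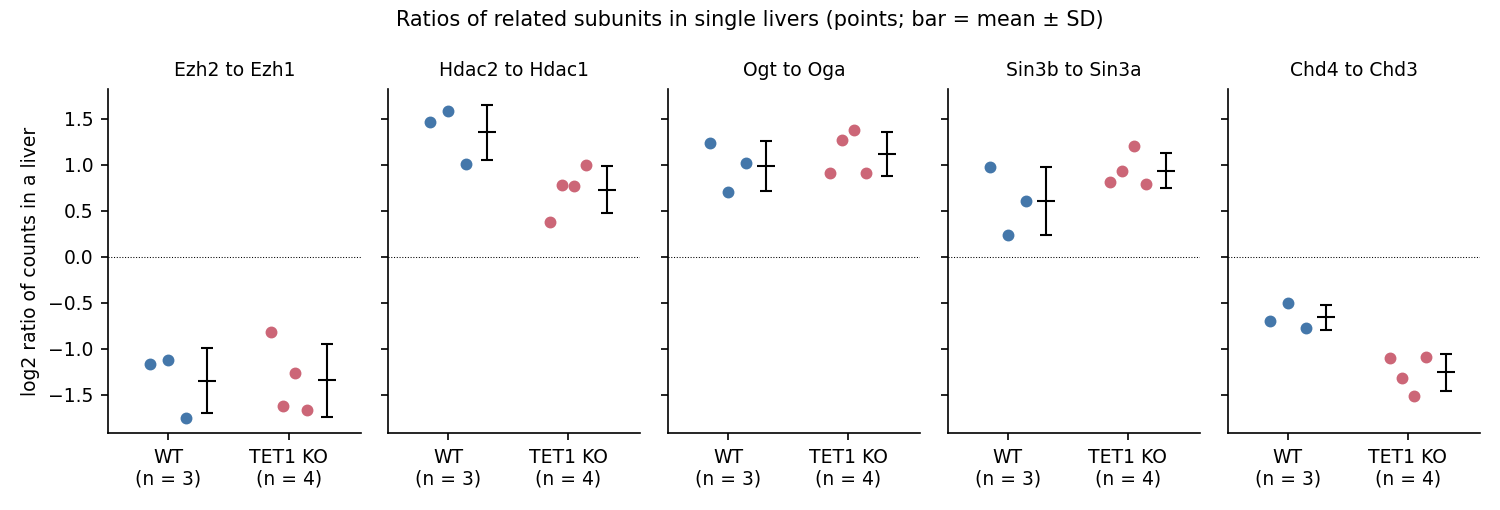
Log2 of the ratio of counts of related genes in each liver (points), with mean ± SD of 3 WT and 4 TET1 KO livers (bars); the dotted line marks equal counts. For Hdac2 to Hdac1 and for Chd4 to Chd3 the 4 TET1 KO livers lie below the 3 WT livers, by 0.62 and 0.60 on average, and the other 3 ratios overlap.

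The lists of genes that work with the 10 genes held 82 further genes, of which 79 were tested. edgeR's quasi-likelihood test called 2 of them, 1 higher and 1 lower, which is 2.53% against 2.02% of all tested genes. At an unadjusted p under 0.05 there were 22 (27.8% against 26.3%), and DESeq2 called 8 (10.1% against 9.46%). Their median log2 fold change was 0.09, beside 0.01 for all tested genes.

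Around Ogt, the hexosamine pathway makes UDP-N-acetylglucosamine, the sugar donor of OGT. Of 6 tested genes of O-GlcNAc cycling and this pathway edgeR called 1, lower, beside 2.02% of all tested genes, and DESeq2 called 3 (50% beside 9.46%). At an unadjusted p under 0.05 there were 4 below 0 and 1 above (83.3% beside 26.3%), and the median log2 fold change was -0.51, beside 0.01 for all tested genes. The called gene was Uap1l1, which resembles the last enzyme of the pathway, with 6.94, 6.51 and 7.45 CPM in WT and 3.51, 4.72, 4.09 and 3.85 CPM in TET1 KO livers. All TET1 KO livers lay below all WT livers, and Uap1l1 fell by 0.79 on the log2 scale (SE 0.18, edgeR adjusted p = 0.0492). Leaving out any 1 liver took its adjusted p to between 0.0516 and 0.149.

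The next genes were named after their values had been seen. Gfpt1, the rate-limiting enzyme of the pathway, had 23.1, 26.99 and 29.5 CPM in WT and 17.7, 16.1, 20.2 and 20.3 CPM in TET1 KO livers (log2 fold change -0.51, edgeR adjusted p = 0.0779). Pgm3, a mutase of the same pathway, had 22.4, 25.0 and 22.5 CPM in WT and 14.28, 15, 19.1 and 14.4 CPM in TET1 KO livers (log2 fold change -0.57, edgeR adjusted p = 0.0655). For both genes the genotypes did not overlap, with TET1 KO livers lower, and both were called by DESeq2 (adjusted p = 0.0311 and 0.0171) but not by edgeR, in which leaving out each liver gave an adjusted p of 0.0607 to 0.272 for Gfpt1 and 0.0704 to 0.260 for Pgm3. Uap1 had a log2 fold change of -0.51 (edgeR adjusted p = 0.113) and overlapped between the genotypes, and Gnpnat1 one of -0.0035 (edgeR adjusted p = 0.992). Oga, the enzyme that removes the sugar, was at 54.2, 53.4 and 52.5 CPM in WT and 70.0, 67.9, 59.8 and 60.7 CPM in TET1 KO livers, without overlap, and had a log2 fold change of 0.28 (edgeR adjusted p = 0.170).

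Among the 14 partners of HCF1 none was called by edgeR or DESeq2 (median log2 fold change 0.02), beside 2.02% and 9.46% of all tested genes, with 1 above and 2 below 0 at an unadjusted p under 0.05 (21.4% beside 26.3%). The ends of this list were Setd1b, a SET1 methyltransferase, at 0.40 (edgeR adjusted p = 0.197), and Dpy30, a shared subunit of these complexes, at -0.54 (edgeR adjusted p = 0.168). None of the 16 tested SIN3 genes was called by edgeR or DESeq2 (median 0.16), and 18.8% had an unadjusted p under 0.05 beside 26.3% of all tested genes. They ran from Sinhcaf at 0.63 (edgeR adjusted p = 0.192) to the histone chaperone Rbbp7 at -0.50 (edgeR adjusted p = 0.143), a gene that NuRD and PRC2 share. Sin3b, the paralog of Sin3a, was at 0.21 (edgeR adjusted p = 0.307). Of 11 tested NuRD genes edgeR called none (median 0.10). At an unadjusted p under 0.05 there were 2 above and 1 below 0 (27.3% against 26.3% of all tested genes), and DESeq2 called 1 (9.09% against 9.46%), shares near those of all tested genes. The 5 tested genes of the other class I deacetylases and CoREST, a corepressor complex, had a median of -0.04 with none called by edgeR or DESeq2 and 20% at an unadjusted p under 0.05, from the CoREST gene Rcor3 at 0.64 (edgeR adjusted p = 0.196) to Rcor1 at -0.41 (edgeR adjusted p = 0.126).

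Of 9 tested genes listed as accessory subunits of PRC2, Rbbp4 and Rbbp7 among them, edgeR called 1, beside 2.02% of all tested genes. This was Epop, which links PRC2 to the elongin BC complex. Epop had 1.23, 1.16 and 1.38 CPM in WT livers and 4.32, 2.18, 2.81 and 2.97 CPM in TET1 KO livers. Every TET1 KO liver exceeded every WT liver, and Epop rose with a log2 difference of 1.29 (SE 0.28, edgeR adjusted p = 0.0461). It was still called without TET1 KO replicate 4 (adjusted p = 0.0436), and not in the other 6 fits that each left out a liver (adjusted p up to 0.217). The other 8 genes had log2 fold changes from -0.50 (Rbbp7) to 0.50 (Phf1, edgeR adjusted p = 0.103), and the list's median was 0.15. At an unadjusted p under 0.05 there were 2 above and 2 below 0 (44.4% beside 26.3% of all tested genes), and DESeq2 called 2 (22.2% beside 9.46%), Epop and Aebp2. Aebp2, a DNA-binding cofactor of PRC2 named after its values had been seen, was at 23.2, 29.6 and 24.3 CPM in WT and 17.5, 19.5, 18.3 and 19.0 CPM in TET1 KO livers. All TET1 KO livers were lower than the WT livers, with a log2 fold change of -0.47 and adjusted p of 0.0379 in DESeq2 and 0.0795 in edgeR (0.0686 to 0.315 with each liver left out).

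The 19 genes of PRC1, the complex that binds the mark made by PRC2 and ubiquitinates histone H2A, had none called by edgeR. At an unadjusted p under 0.05 there were 5, all above 0, which is 26.3% beside 26.3% of all tested genes, and DESeq2 called 2 (10.5% beside 9.46%), with a list median of 0.17 beside 0.01 for all tested genes. The ends of the list were the chromobox gene Cbx2, whose protein reads methylated lysine 27, at 0.78 (edgeR adjusted p = 0.0715), and Pcgf5 at -0.54 (edgeR adjusted p = 0.271). Cbx2 was at 6.45, 4.52 and 3.75 CPM in WT and 7.83, 8.81, 9.56 and 7.56 CPM in TET1 KO livers, without overlap, and leaving out each liver gave it an edgeR adjusted p of 0.0477 to 0.289. Cbx7 (0.72) and Cbx8 (0.44), named after their values had been seen, were also among the 5, with edgeR adjusted p of 0.0655 (0.0549 to 0.272 with each liver left out) and 0.143 and no overlap between the genotypes. The demethylases that remove the mark had none of 3 called by edgeR or DESeq2 and 0 at an unadjusted p under 0.05, with Kdm6b at 0.46 (edgeR adjusted p = 0.219) and Kdm6a at -0.32 (edgeR adjusted p = 0.258).

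The Hox clusters and Cdkn2a and Cdkn2b, 41 genes that PRC2 is known to silence, were mostly at or near 0: 27 had at most 3 counts in each library and 18 of these had 0 in all. Only 6 were tested and edgeR called none, beside 2.02% of all tested genes. Their log2 fold changes ran from -0.32 (Hoxa5, edgeR adjusted p = 0.538) to 1.04 (Hoxb3, edgeR adjusted p = 0.0977). Hoxb3 was at 0.837, 0.705 and 0.497 CPM in WT and 1.31, 1.34, 1.89 and 1.11 CPM in TET1 KO livers, without overlap. A gene can pass the filter on low counts through the livers where it is higher, so no share or median over these 6 is given. DESeq2 called 1, beside 9.46% of all tested genes. This was Hoxb4, named after its values had been seen, at 4.18, 2.74 and 3.09 CPM in WT and 5.70, 5.07, 7.37 and 4.87 CPM in TET1 KO livers. The genotypes of Hoxb4 did not overlap, and its log2 fold change of 0.79 had an adjusted p of 0.0397 in DESeq2 and 0.0808 in edgeR (0.0595 to 0.326 with each liver left out). The remaining TET genes, Tet2 and Tet3, had log2 fold changes of -0.01 and 0.32 (edgeR adjusted p = 0.984 and 0.223).

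**Figure D5:**
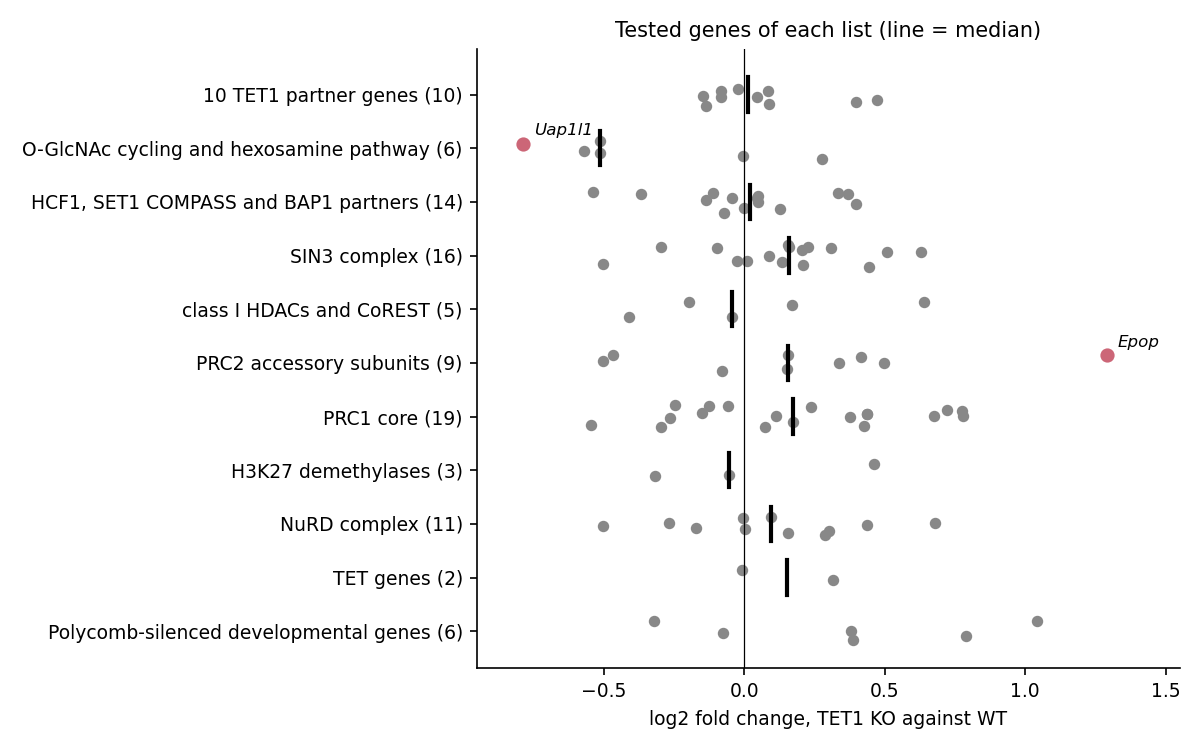
Log2 fold change of TET1 KO against WT livers for each tested gene (points, spread vertically for legibility), by list, with the number of tested genes in parentheses and the median as a black line, except in the last list; red points were called at an adjusted p under 0.05. Uap1l1 at -0.79 and Epop at 1.29 are the called genes, and the 10 genes of the first line lie within 0.473 of 0.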

How the data were processed

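Liver RNA of 3 WT and 4 TET1 KO mice was sequenced. The authors deposited raw gene counts for each liver. The submitters' processing notes name Trimmomatic 0.36, GSNAP, featureCounts 1.5.3 and GRCm38. Of 51431 entries, 5 repeats were left out, and genes were joined by Ensembl identifier since 26 symbols differed in 1 table. The tests ran in edgeR 4.0.16 under R 4.3.3 (filterByExpr, TMM, glmQLFit and glmQLFTest, no covariate), with p-values adjusted over all 14754 tested genes. DESeq2 1.42.0 was the alternative test, and both were tested on simulated data. Ratios used counts plus 0.5 and exact two-sided permutation tests over 35 splits. Library sizes were 15005277 to 22746138 counts. Copies were sought with blastn 2.17.0 in NCBIM37, and member coordinates are from RefSeq GRCm38.p6. Figures were drawn with matplotlib 3.10.9.

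The 10 genes and all lists were chosen with earlier results of these data known. Named are the 10 genes, called partners, the ends of each list by log2 fold change, Oga, the TET genes and the partners in ratios, plus genes said to be named after their values were seen. The labels used carry no batch. The alternatives were DESeq2, other scaling and filters, robust dispersions, a replicate block, another threshold on p, a limit on fold change, other pseudocounts and leaving out each liver. Summing Hdac1 and Gm10093 was added after seeing the data.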

Additional observations from a re-analysis of the deposited data

Results flagged for a closer look

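Among the 4 TET1 KO livers, TET1 KO replicate 1 stood apart for Chd4, with 115.9 CPM beside 73.3 to 75.4 CPM in the others, and the gap to its nearest neighbour was 0.951 of the group's range. For Tet3, TET1 KO replicate 4 stood apart at 18 CPM, beside 24.65 to 25.99 CPM in the others, with a gap of 0.833 of the range. Of 34 genes and ratios examined 2 stood out in this way, where chance gives about 1 in 20 groups, or 1.7.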

How the results depend on the processing

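None of the 10 genes was called under any alternative (lowest adjusted p = 0.0835, for Hdac1 with the replicate block). That block takes TET1 KO replicate 4 out of the genotype contrast. Of 141 values of single genes under the alternatives 128 kept their direction and 13 turned, each in a gene whose 95% interval held 0. With library size as the only scaling, Chd4 was at -0.0060, Ezh1 at -0.0083 and Ezh2 at -0.0524. Leaving out each liver in turn gave log2 fold changes of 0.26 to 0.54 for Ogt and 0.34 to 0.59 for Hdac1, and a change of sign for 5 genes: -0.2735 to 0.0190 for Sin3a (turned without WT replicate 2), -0.1016 to 0.1493 for Chd4 (without TET1 KO replicate 1), -0.1351 to 0.1359 for Ezh2 (without WT replicate 3, and -0.0110 without TET1 KO replicate 1), -0.1317 to 0.0559 for Suz12 (without TET1 KO replicate 4, 0.0271 without WT replicate 2 and 0.0083 without WT replicate 3) and -0.2979 to 0.0468 for Eed (without WT replicate 3). The ratio of Ogt to Oga differed by -0.0117 without WT replicate 2 (range up to 0.2568), and that of Ezh2 to Ezh1 by -0.2003 without WT replicate 3, -0.1747 without TET1 KO replicate 1 and -0.0260 without TET1 KO replicate 3 (range up to 0.1124). Hdac2 to Hdac1 turned to 0.21 with Gm10093 in place of Hdac1.

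The whole table had 298 called genes, 1395 with DESeq2, 592 with no filter on low counts, 1666 at an adjusted p under 0.1, and 38 (without WT replicate 2) to 891 (without TET1 KO replicate 4) when each liver was left out. It had 187 without TET1 KO replicate 1, 104 without replicate 2 and 79 without replicate 3. The partner lists had 2 called genes, 8 with DESeq2, 8 at an adjusted p under 0.1, and 0 to 4 when each liver was left out. The cause was not tested.

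A replicate block for the shared numbers gave 1326 calls in the whole table and 8 in the partner lists, and put Ezh1 at -0.0107 and Suz12 at 0.0615. No WT liver carries number 4, so under this block TET1 KO replicate 4 does not enter the genotype contrast. Leaving out that liver without a block gave 891 calls in the whole table and 4 in the partner lists. Deviations of same-numbered livers correlated at 0.209, -0.123 and -0.096. So few values cannot decide whether the numbers pair the livers, and calls gained under the block are not read as stronger effects.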
